A study of Homo sapiens with 16 samples.

Results

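MX1 and MX2 lie side by side on chromosome 21 and encode dynamin-like GTPases that are induced by type I interferon. MxA, the product of MX1, blocks influenza virus and many other RNA viruses, whereas MxB, the product of MX2, restricts HIV and herpesviruses. Interferon binding to its receptor activates the transcription factor complex ISGF3, which binds interferon-stimulated response elements at such genes. USP18 limits this signalling at the receptor and also removes ISG15 from proteins. The acetylated histone mark H3K27ac is found at active promoters and enhancers.

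Both genes were described by the windows that the deposited table assigns to them by nearest transcription start site (TSS), within 50000 bp of it. Of 151654 windows of 1000 bp, each set on an ATAC-seq peak, 14 met this rule, of which 9 were assigned to MX1 and 5 to MX2. H3K27ac ChIP-seq was available for THP-1 cells, a human monocytic leukemia line, in 4 groups of 2 libraries. WT cells had received a control sgRNA and USP18-/- cells sgRNAs against USP18, both by lentivirus. Each genotype was left untreated or given IFNα at 1000 U/ml for 6 h. Edited lines were grown from single sorted cells per the study's methods, so genotype and clone cannot be told apart, and how many clones entered the ChIP-seq is not given in the sources used here. The labels do not say whether the 2 libraries of a group came from separate cultures, and p-values then measure only the spread between libraries. The 8 libraries held between 9046141 and 12935454 tags in windows, or 36.1% to 42.5% of all tags, with the highest share in a USP18-/- library given IFN. Of 10 monocytic markers, 9 had a window within 1000 bp of their TSS, with summed H3K27ac of 181 to 197 CPM (tags relative to TMM-adjusted library size) in untreated WT cells and 276 to 279 CPM in USP18-/- cells given IFN. Most of that gain was at SPI1 (67.0 to 130 CPM as group means) and LILRB4 (34.3 to 71.8 CPM). Between IFN treated groups, USP18-/- cells were higher at 2 of the 9 (LILRB4 and CD14) and lower at 2 (S100A9 at -1.64, SE 0.21, and LYZ at -1.11, SE 0.19). Of all tested windows, at a TSS or not, 11.3% were higher and 13.5% lower, and the shares among TSS windows alone were not computed. The median log2 fold change of the 9 was 0.06, beside 0.38 over all TSS windows. Of 10 markers of other cell types, 3 had such a window. Their sums were 3.91 to 4.04 CPM in untreated WT cells and 6.23 to 8.36 CPM in USP18-/- cells given IFN. The part of this shift in the results below was not tested. The input libraries were not analysed here.

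Sequences from both MX1 promoters and the MX2 intron 7 window, on which the results turn, are shown here from hg38, 5′ to 3′ on the plus strand, on which both genes are transcribed. Those of the promoters hold pairs of TTTC joined by 1 base (TTTCNTTTC, printed in capitals, also as its reverse complement), a form of the interferon element core that was chosen for display after the sequence had been read. For MX1, 30 bases are shown around each of 2 sites in each of its promoter windows, at chr21:41420202-41420231 and chr21:41420554-41420583 in the upstream window and at chr21:41426116-41426145 and chr21:41426161-41426190 in the downstream window. In the second upstream site the capitals run on over a core with 2 bases between TTTC and TTTC on the minus strand. The upstream window holds a further match of the 1-base form, TTTCCTTTC at chr21:41420539-41420547, which is not shown.

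MX1 upstream promoter, site 1: cacagaagagGAAACGAAAcgaggcaaagg
MX1 upstream promoter, site 2: ccagcgagcaGAAATGAAACCGAAActgaa
MX1 downstream promoter, site 1: aggagctaggTTTCGTTTCtgcgcccggag
MX1 downstream promoter, site 2: ggtctgtgagTTTCATTTCttcgcggcgcg

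The last sequence is the centre of the window in intron 7 of MX2, at chr21:41396725-41396824, which had less H3K27ac in USP18-/- than in WT cells and held none of the searched motifs in these 100 bases.

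MX2 intron 7 window, centre: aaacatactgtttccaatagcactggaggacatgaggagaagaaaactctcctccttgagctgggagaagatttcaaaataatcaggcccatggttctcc

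Across the locus, IFNα raised H3K27ac at the MX2 promoter and at the upstream MX1 promoter in both genotypes, and more in USP18-/- cells. At the downstream MX1 promoter it raised the mark in WT cells, whereas the rise in USP18-/- cells did not pass the test. A window called changed had to differ by more than 2-fold with an adjusted p under 0.05 in edgeR's quasi-likelihood fit, adjusted by Benjamini-Hochberg over the 123276 windows with at least 10 counts in at least 2 libraries. A lower level in a bulk library may be fewer cells with the mark or less mark per cell, which cannot be told apart. All 14 windows were tested and 5 were called in any of the 5 comparisons.

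**Figure D1:**
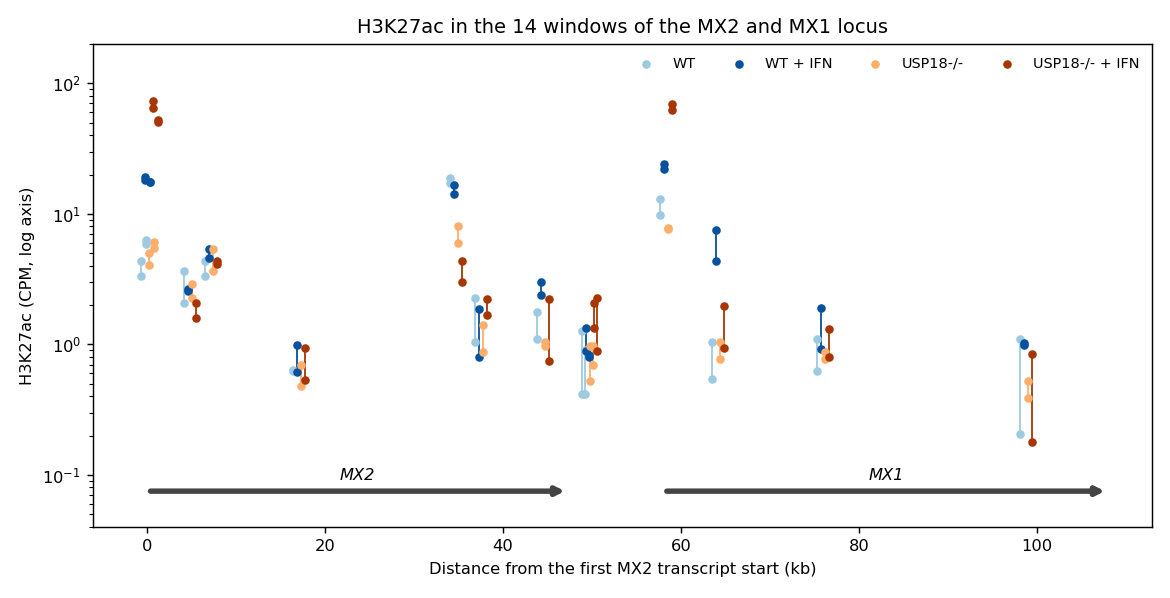
H3K27ac in CPM on a log axis against distance in kb from the first MX2 transcript start, with 1 point per library, lines joining the 2 libraries of a group, colours for the 4 groups and arrows for the gene bodies in GENCODE release 44. The points of USP18-/- cells given IFN stand highest at the MX2 promoter, at 72.8 and 65.0 CPM, and at the upstream MX1 promoter, at 69.9 and 62.0 CPM.

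IFNα in WT cells raised 4 of the 14 windows and lowered 0, where 0.343% of all tested windows were called higher and 0.0389% lower. The 4 were the MX2 promoter, the adjoining window in intron 1 of MX2 and both promoter windows of MX1. At an unadjusted p under 0.05, the other windows added the one 14047 bp before the MX1 TSS, with a log2 fold change of 0.92 (SE 0.39, adjusted p = 0.42 in edgeR), and 0 windows that were lower. DESeq2 called 4 higher and 0 lower as well. In USP18-/- cells, 3 windows rose and 0 fell, against 7.12% and 4.41% of all windows. These 3 were again the MX2 promoter, the MX2 intron 1 window and the upstream MX1 promoter. DESeq2 gave the same counts, and at an unadjusted p under 0.05 there were 4 higher and 1 lower in edgeR. The IFN effect was larger in USP18-/- than in WT cells in 3 windows and smaller in 1, against 4.61% and 2.55% of all windows. The median log2 fold change of the 14 windows was 0.47 for IFN in WT cells and 0.61 in USP18-/- cells, beside -0.01 over all windows in each.

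**Figure D2:**
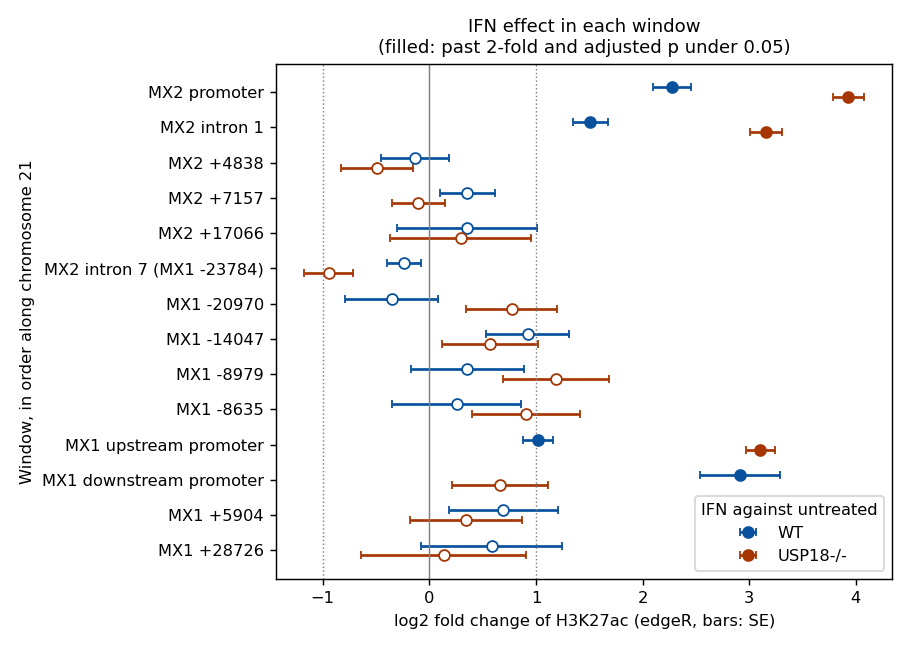
The log2 fold change of H3K27ac with IFN (x axis, bars are the SE) for each of the 14 windows in order along the chromosome (y axis), in WT cells (blue) and USP18-/- cells (brown), with filled points for windows past both thresholds. The downstream MX1 promoter is filled in WT cells at 2.92 and open in USP18-/- cells at 0.66, and the MX2 promoter is filled in both, at 2.27 and 3.93.

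The MX2 promoter window, at chr21:41361477-41362477, lies 46 bp before the TSS of NM_002463 and holds 5 GENCODE transcript starts. Its H3K27ac was 3.32 and 4.37 CPM in untreated WT cells and 19.3 and 18.2 CPM in WT cells given IFN. Untreated USP18-/- cells gave 4.03 and 5.03 CPM, and USP18-/- cells given IFN gave 72.8 and 65.0 CPM. The untreated genotypes overlapped, and both libraries of each IFN group stood above all untreated ones, with those of USP18-/- cells highest. With IFN the window rose 4.83-fold in WT cells (log2 fold change 2.27, SE 0.18, adjusted p = 4.8e-17 in edgeR). The rise in USP18-/- cells was 15.3-fold (3.93, SE 0.15, adjusted p = 2.5e-37 in edgeR). The difference between these effects was 1.66 on the log2 scale (SE 0.26, adjusted p = 9.9e-07 in edgeR). Between IFN treated groups USP18-/- cells exceeded WT cells by 1.88 (SE 0.12, adjusted p = 1.6e-23 in edgeR). Untreated, they differed by 0.22 (SE 0.23, 95% interval -0.23 to 0.67, adjusted p = 0.51 in edgeR). Among windows at the TSS of 14275 genes, 1 per gene, its IFN effect ranked 13th from the highest in WT cells and 16th in USP18-/- cells. Its level moved from the 62.0th percentile of all tested windows in untreated WT cells to the 97.9th in USP18-/- cells given IFN.

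The window in intron 1 of MX2, at chr21:41362028-41363028, shares 450 bases with the promoter window, so that many tags enter both. Its H3K27ac was 5.91 and 6.28 CPM in untreated WT cells and 17.4 and 17.4 CPM with IFN. In USP18-/- cells it was 5.43 and 6.09 CPM untreated and 52.4 and 50.3 CPM with IFN. As at the promoter, the untreated genotypes overlapped and the IFN treated USP18-/- libraries were highest. IFN raised it by 1.51 in WT cells (SE 0.17, adjusted p = 1.0e-10 in edgeR) and by 3.16 in USP18-/- cells (SE 0.15, adjusted p = 6.6e-32 in edgeR), a difference of 1.65 (SE 0.24, adjusted p = 6.4e-08 in edgeR). Further into MX2, the windows 4838, 7157 and 17066 bp after the TSS, in introns 1, 1 and 3, were called in 0 comparisons. The window at 4838 bp held 2.07 and 3.64 CPM in untreated WT cells and 1.60 and 2.07 CPM in USP18-/- cells given IFN, and its largest change was a log2 fold change of -0.52 between IFN treated groups (SE 0.34, adjusted p = 0.24 in edgeR). Over these windows the IFN effect in USP18-/- cells ran from -0.49 to 0.29.

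MX1 has 2 promoter windows in the table, whose centres are 5866 bp apart. The upstream window, at chr21:41419822-41420822, lies 236 bp before the TSS of NM_001144925 and holds 13 GENCODE transcript starts, 11 of them of coding transcripts. The downstream window, at chr21:41425688-41426688, lies over the first exon of NM_002462, in its 5′ UTR, 157 bp after that TSS. It holds 30 transcript starts, 23 of them coding, among them that of the GENCODE canonical transcript.

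At the upstream MX1 promoter, H3K27ac was 13.1 and 9.83 CPM in untreated WT cells, 23.9 and 22.1 CPM in WT cells given IFN, 7.61 and 7.74 CPM in untreated USP18-/- cells and 69.9 and 62.0 CPM in USP18-/- cells given IFN. The 4 groups did not overlap, and USP18-/- cells held both the lowest and the highest libraries. IFN raised the window 2.02-fold in WT cells (log2 fold change 1.02, SE 0.14, adjusted p = 3.2e-07 in edgeR), just past the fold threshold. Without IFN treated WT replicate 1 this effect was 0.96 and without untreated WT replicate 2 it was 0.82, both short of the threshold (adjusted p = 4.0e-04 and 8.8e-03 in edgeR, the range over all alternatives being 1.0e-08 to 8.8e-03). In USP18-/- cells the rise was 8.58-fold (3.10, SE 0.14, adjusted p = 1.9e-33 in edgeR), and it exceeded that in WT cells by 2.08 (SE 0.20, adjusted p = 2.6e-13 in edgeR). Untreated USP18-/- cells stood lower than untreated WT cells by a log2 fold change of -0.57 (SE 0.17, adjusted p = 4.7e-03 in edgeR), which is within the 2-fold threshold. Without untreated WT replicate 1 this was -0.36 (adjusted p = 0.21 in edgeR), and with its region class fitted alone it was -0.88, the adjusted p ranging from 5.9e-05 to 0.21 over all alternatives. With IFN they stood 1.52 higher (SE 0.12, adjusted p = 2.1e-19 in edgeR).

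The downstream MX1 promoter carried far fewer tags. Raw tags were 9.5 and 5.5 in untreated WT cells, 75.5 and 42.5 in WT cells given IFN, 12.5 and 8.0 in untreated USP18-/- cells and 21.5 and 10.5 in USP18-/- cells given IFN. In CPM these were 1.04 and 0.546, 7.55 and 4.32, 1.05 and 0.774, and 1.96 and 0.939. Both libraries of WT cells given IFN stood above the other 6, and the remaining groups overlapped one another. IFN raised the window 7.56-fold in WT cells (log2 fold change 2.92, SE 0.38, adjusted p = 2.1e-08 in edgeR), which ranked 7th among TSS windows. In USP18-/- cells the effect was 0.66 (SE 0.45, 95% interval -0.22 to 1.55, adjusted p = 0.33 in edgeR), the 1309th rank. It rests on single libraries, at 0.0242 without IFN treated USP18-/- replicate 1 and 1.07 without replicate 2 (adjusted p = 0.99 and 0.12 in edgeR, the range over all alternatives being 0.12 to 0.99). With IFN, USP18-/- cells stood below WT cells by a log2 fold change of -2.02 (SE 0.33, adjusted p = 2.0e-07 in edgeR). The untreated genotypes differed by 0.24 (SE 0.52, 95% interval -0.78 to 1.26, adjusted p = 0.78 in edgeR).

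The difference of the IFN effects at the downstream promoter was -2.26 (SE 0.63, adjusted p = 7.4e-03 in edgeR), the 22nd lowest among TSS windows. This call depends on single libraries and on the tool. Its adjusted p was 0.087 in DESeq2 (log2 fold change -2.27), and in edgeR it was 0.088 without untreated USP18-/- replicate 1 (-2.05), 0.087 without IFN treated WT replicate 1 (-1.79) and 0.084 without untreated WT replicate 2 (-1.84). Over all 17 alternatives the adjusted p ran from 1.2e-03 to 0.088 and the value stayed negative. The lower level in IFN treated USP18-/- than WT cells kept its call in all 18 alternatives.

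**Figure D3:**
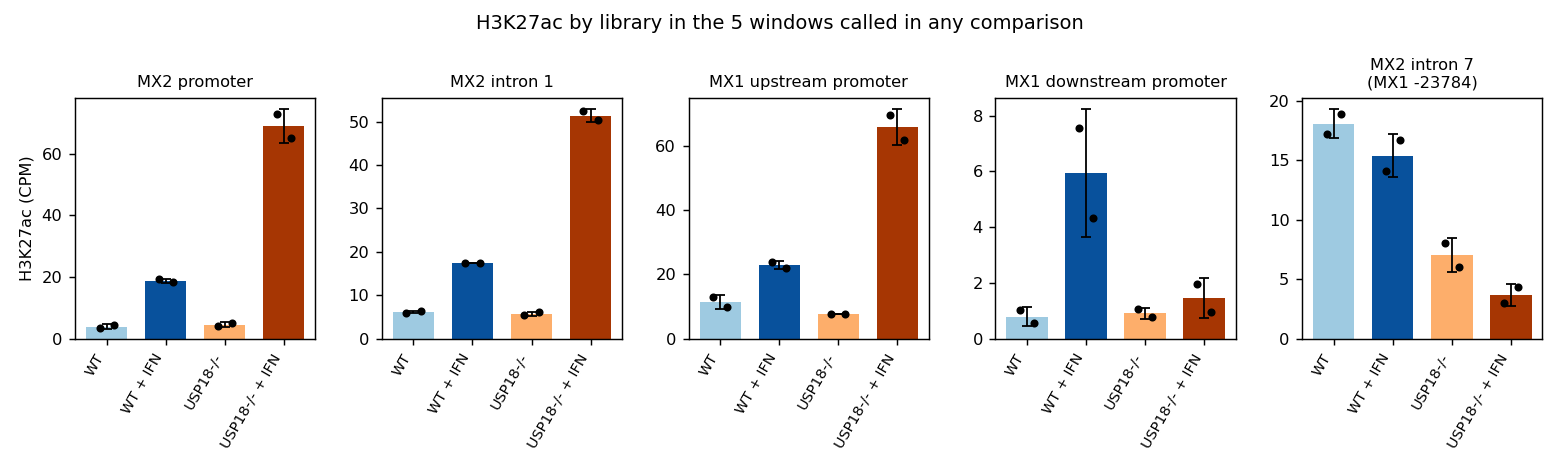
H3K27ac in CPM (y axis, a separate scale per panel) in the 4 groups for the 5 windows called in any comparison, with bars for the mean of 2 libraries, error bars for the SD and points for the libraries. The downstream MX1 promoter peaks in WT cells given IFN, at 7.55 and 4.32 CPM, where the other promoter windows peak in USP18-/- cells given IFN.

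The division between both MX1 promoters moved accordingly. Downstream H3K27ac was 7.94% and 5.56% of the upstream level in untreated WT cells and 31.5% and 19.5% in WT cells given IFN. In USP18-/- cells it was 13.8% and 10.0% untreated and 2.80% and 1.52% with IFN. IFN treated WT libraries had the highest share and IFN treated USP18-/- libraries the lowest, with no overlap between the groups. Across the table, 1215 genes had at least 2 separate tested windows within 1000 bp of a TSS. MX1 was the only 1 of them with a larger IFN effect called in 1 such window and a smaller one in another, or 0.0823%. This count was made after the values had been seen, and in DESeq2 or without the libraries named above the smaller effect was not called.

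The fifth called window is assigned to MX1 by distance but lies inside MX2, in its intron 7, at chr21:41396274-41397274, 23784 bp before the MX1 TSS. In untreated WT cells it had the highest H3K27ac of the 14 windows, at 17.2 and 18.9 CPM, and it kept 14.1 and 16.7 CPM with IFN. In USP18-/- cells it held 8.05 and 6.00 CPM untreated and 3.03 and 4.32 CPM with IFN. The genotypes did not overlap under either treatment. Within 1 Mb of the locus, 59 other windows had a median log2 fold change of 0.24 between untreated USP18-/- and WT cells and of 0.39 between those given IFN. Untreated USP18-/- cells were lower by a log2 fold change of -1.36 (SE 0.18, adjusted p = 7.5e-10 in edgeR), and those given IFN stood at -2.07 on the same scale (SE 0.20, adjusted p = 9.9e-15 in edgeR). With IFN its level in USP18-/- cells changed by -0.95 (SE 0.23, adjusted p = 5.9e-04 in edgeR), short of 2-fold. That effect was past 2-fold at -1.08 with libraries scaled by the sum of counts, at -1.01 with mapped totals, at -1.23 without IFN treated USP18-/- replicate 2 and at -1.13 without untreated USP18-/- replicate 2. In WT cells it was -0.23 (SE 0.16, adjusted p = 0.73 in edgeR), and the difference of both was -0.71 (SE 0.28, adjusted p = 0.086 in edgeR), which was called only without IFN treated USP18-/- replicate 2, at -1.01 (adjusted p = 0.027 in edgeR, the range over its alternatives being 0.027 to 0.38).

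Between untreated USP18-/- and WT cells, this window was thus the 1 called member, with 0 higher and 1 lower, against 5.69% and 10.8% of all windows. DESeq2 gave the same counts, and at an unadjusted p under 0.05 edgeR had 0 higher and 2 lower, the second being the upstream MX1 promoter. The median of the 14 windows was -0.13, beside -0.02 over all windows. Under IFN, USP18-/- cells were higher than WT cells in 3 windows and lower in 2, against 11.3% and 13.5% of all windows. The 3 were both MX2 windows at the TSS and the upstream MX1 promoter, and the 2 were the downstream MX1 promoter and the intron 7 window. The median was -0.19 in the 14 windows and 0.00 over all windows. Over the TSS windows of all genes, the median between USP18-/- and WT cells was higher, at 0.33 untreated and 0.38 with IFN.

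The remaining 9 windows held 0.178 to 5.42 CPM in every library and were called in 0 comparisons. Those 20970 and 14047 bp before the MX1 TSS lie in introns 10 and 12 of MX2, the first on an AluJb element. Those at 8979 and 8635 bp before it overlap each other on an L1PB1 element between the genes. The window 5904 bp after a TSS lies in intron 5 of NM_001178046, and that at 28726 bp is annotated as intergenic although the GENCODE span of MX1 reaches past it. Of these MX1 windows, that at -8979 had the largest IFN effect in USP18-/- cells, 1.19 (SE 0.50, adjusted p = 0.074 in edgeR), with 0.525 and 0.967 CPM in untreated USP18-/- cells and 1.33 and 2.07 CPM in those given IFN. The SE of the IFN effects in these 9 windows ran from 0.25 to 0.78, so that a 2-fold change could be missed at this depth.

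Summed over 12 windows that do not overlap, the locus held 44.7 and 49.1 CPM in untreated WT cells and 80.0 and 78.1 CPM in WT cells given IFN. Untreated USP18-/- cells held 31.8 and 32.3 CPM, and those given IFN 161 and 146 CPM. USP18-/- cells thus had both the lowest and the highest totals. The intron 7 window took 38.5% and 38.5% of the total in untreated WT cells and 1.88% and 2.95% in USP18-/- cells given IFN. The MX2 promoter rose from 7.42% and 8.89% to 45.3% and 44.4% between the same groups.

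**Figure D4:**
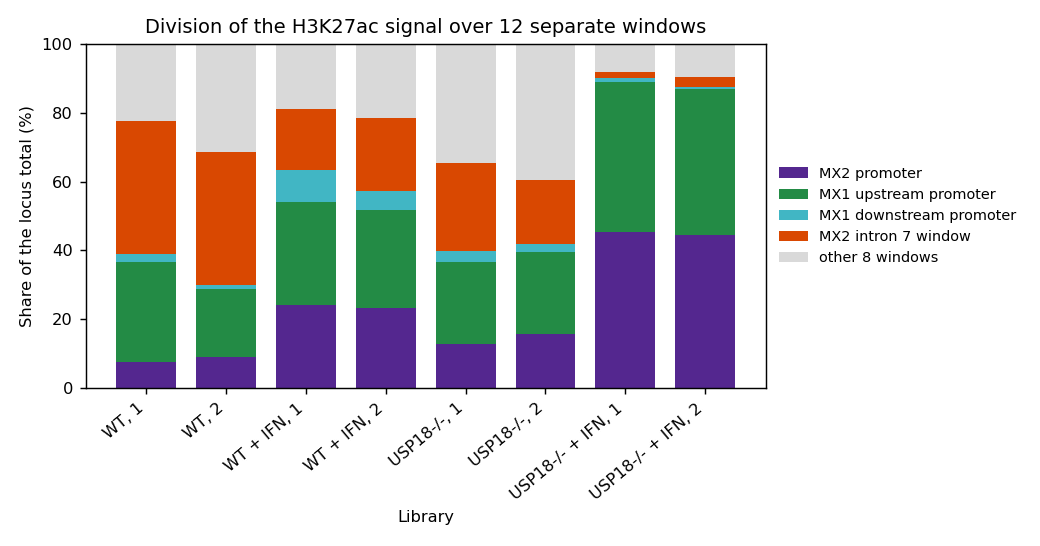
The share of the locus total (y axis, %) taken by each window in each of the 8 libraries (x axis), over 12 windows that do not overlap. The intron 7 window takes the largest share in untreated WT cells, 38.5% in each library, and the MX2 promoter and the upstream MX1 promoter take 45.3% and 43.5% in USP18-/- replicate 1 given IFN.

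Over the 8 libraries, the upstream MX1 promoter followed the MX2 promoter with a Pearson r of 0.96 of log2 CPM, and the downstream MX1 promoter with 0.39. The intron 7 window had an r of -0.62 with the MX2 promoter. These are descriptions over libraries that share 4 conditions. Among TSS windows of other genes, those most like the MX2 promoter were ISG15, a ubiquitin-like protein removed by USP18 (r = 0.998), PARP14, an ADP-ribosyltransferase (0.996), IFITM3, which blocks virus entry (0.994), IFI6 (0.994) and OAS2, a sensor of double-stranded RNA (0.994). Those most like the upstream MX1 promoter were IFI16, a DNA sensor (0.993), LINC02332 (0.992), SEPT4 (0.990), PHF11 (0.988) and LOC101927027 (0.987). For the downstream promoter they were EMILIN2 (0.980), TRIM59-IFT80 (0.941), GCNT2 (0.932), MIR1224 (0.932) and CPNE7 (0.925). A high r gives a like order of libraries and not a change of like size. IFN effects in WT and USP18-/- cells were 0.27 and 0.06 at EMILIN2, 0.26 and 0.70 at LINC02332, and 1.64 and 3.80 at IFI16. Group means were 0.87 to 1.26 CPM at TRIM59-IFT80 and 0.69 to 1.31 CPM at MIR1224. Neither list of 5 for the MX1 promoters holds a gene of the antiviral list described next, which leaves out other genes that rose with IFN, such as IFI16. In the upstream list, IFN effects in WT and USP18-/- cells were also 1.11 and 4.32 at SEPT4, 1.04 and 2.32 at PHF11, and 0.72 and 1.81 at LOC101927027.

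Interferon-induced antiviral effectors were compared through the window nearest their TSS. All 26 listed genes had one. They were listed because interferon induces them, so a rise in many was foreseen. IFN in WT cells raised 19 of 26, against 0.406% of all TSS windows, and in USP18-/- cells it raised 23, against 3.47%. The effect was larger in USP18-/- cells in 20, against 2.42%. Their median effect was 1.86 in WT cells and 3.21 in USP18-/- cells, beside -0.01 and 0.05 over all TSS windows. The MX2 promoter at 2.27 and 3.93 stood above both medians, the upstream MX1 promoter at 1.02 and 3.10 below both, and the downstream one at 2.92 and 0.66 above the first and below the second. IFI44L, IFITM1 and IFI44 had the largest effects in USP18-/- cells, at 6.28 (SE 0.24), 5.13 (SE 0.16) and 5.05 (SE 0.26). SAMHD1, which degrades nucleotides (0.80, SE 0.09), and ZC3HAV1, which binds viral RNA (0.94, SE 0.09), were among those with the smallest and stayed within 2-fold. IFI27 had the lowest difference between genotypes in the list, -0.71 (SE 0.60, adjusted p = 0.56 in edgeR), and is named here after its value was seen.

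**Figure D5:**
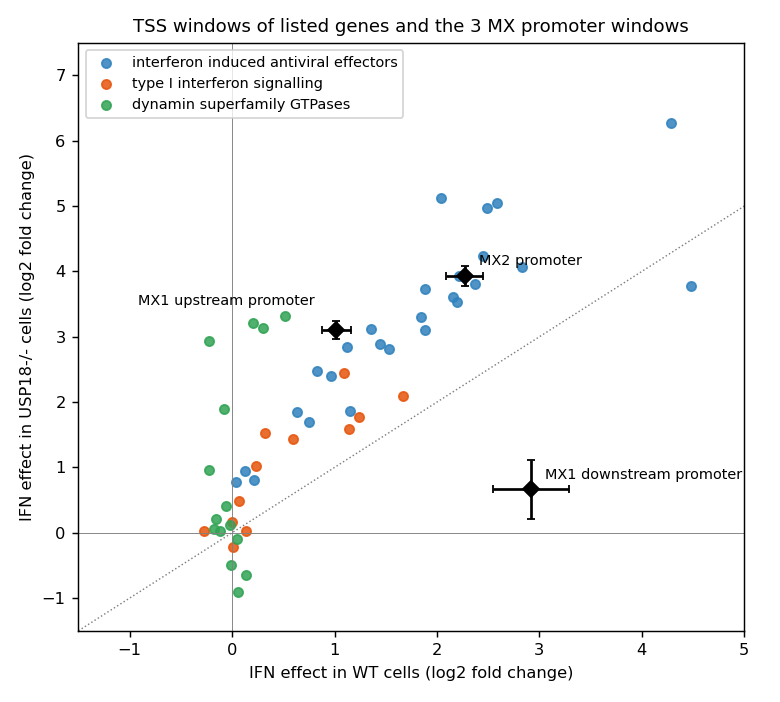
IFN effect on H3K27ac as log2 fold change in USP18-/- cells (y axis) against WT cells (x axis), with 1 point for the TSS window of each gene of 3 lists, diamonds with SE bars for the MX promoter windows and a dotted line where both effects are equal. The MX2 promoter (2.27 and 3.93) and the upstream MX1 promoter (1.02 and 3.10) lie above the line and the downstream MX1 promoter (2.92 and 0.66) below it.

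Among 12 genes of type I interferon signalling, IFN raised 4 in WT cells and 7 in USP18-/- cells, against 0.406% and 3.47% of all TSS windows. The effect was larger in USP18-/- cells in 2, against 2.42%. Effects in USP18-/- cells were largest at USP18 itself (2.44, SE 0.14), at IRF9, the DNA-binding part of ISGF3 (2.09, SE 0.11), and at IRF7 (1.78, SE 0.09). They were smallest at the receptor subunits IFNAR1 (-0.21, SE 0.12) and IFNAR2 (0.02, SE 0.14) and at the kinase JAK1 (0.03, SE 0.22), none past the test. A window at the USP18 promoter does not show whether the coding sequence was disrupted.

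Other GTPases of the dynamin superfamily were covered for 15 of 17 genes. IFN in WT cells raised 0 of their TSS windows and in USP18-/- cells 5, against 0.406% and 3.47% of all TSS windows. All 5 were guanylate-binding proteins, which act against intracellular pathogens. These were GBP1 (3.32, SE 0.41), GBP5 (3.22, SE 0.29), GBP4 (3.13, SE 0.23), GBP2 (2.93, SE 0.25) and GBP3 (1.90, SE 0.16). The count of 0 in WT cells was from edgeR, where 0 of the 15 had an unadjusted p under 0.05. The lowest values in USP18-/- cells were those of DNM1 (-0.91, SE 0.26), DNM3 (-0.65, SE 0.39) and ATL1 (-0.50, SE 0.19), within 2-fold.

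Neighbours on the chromosome were covered by a TSS window for 7 of 15 genes. Of all TSS windows, 0.406% were raised in WT cells and 3.47% in USP18-/- cells, and 2.42% had a larger effect in USP18-/- cells. IFN raised 0 of the 7 in WT cells in edgeR, where BACE2 alone had an unadjusted p under 0.05 (-1.98, SE 0.92), and 1 in USP18-/- cells, C2CD2 (1.61, SE 0.26, adjusted p = 5.0e-07 in edgeR), which also had a larger effect than in WT cells (1.39, SE 0.38, adjusted p = 7.2e-03 in edgeR). BACE2 and PRDM15 followed at 0.87 (SE 0.63) and 0.19 (SE 0.12), and ABCG1, PDE9A and ZBTB21 were lowest at -0.46 (SE 0.51), -0.42 (SE 0.55) and 0.01 (SE 0.13), none past the test. The 59 windows within 1 Mb had a median IFN effect of -0.16 in WT cells and -0.18 in USP18-/- cells. Of these, 0 were called in WT cells, while 4 were higher and 3 lower in USP18-/- cells, shares close to the 7.12% and 4.41% of all windows.

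Motif letters were searched on both strands of all 151654 windows. The core with 1 base between TTTC and TTTC was found in 3 of the 14 windows and in 15.6% of all windows. These 3 were the MX2 promoter and both MX1 promoters. This form was chosen after the sequence had been read, so its count in these windows is a description only. The usual interferon element core, with any 2 bases between TTTC and TTTC, was found in 4 of the 14 windows, the upstream MX1 promoter and the windows at -8979, -8635 and 28726, and in 17.2% of all windows. Those at -8979 and -8635 overlap and share matches. An ETS-IRF composite overlaps the first upstream site, and 13.6% of all windows hold one. TGANTCA, the AP-1 letters, occur in 5 of the 14 windows and in 31.1% of all windows. The MX2 promoter and the downstream MX1 promoter are among the 5. TTCNNNGAA, the GAS letters, occur in 6 of the 14 windows, among them the upstream MX1 promoter and the intron 7 window, and in 26.2% of all windows. The NF-kB letters and GAGGAAGT, those of PU.1, were found in 0 of the 14 windows, and in 4.49% and 11.0% of all windows. These are matches of letters and do not show binding.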

How the data were processed

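H3K27ac tags were analysed in 8 ChIP-seq libraries, 2 per group, and the 8 input libraries were not analysed here. The authors aligned the reads to hg38 by Bowtie2, made HOMER tag directories and deposited raw tags of windows of 1000 bp around ATAC-seq peaks. The values the authors deposited are handled like expected counts, since they come in steps of 0.5 with no normalization, and 52.2% were whole. They were rounded to whole counts. Windows with at least 10 counts in at least 2 libraries entered edgeR 4.0.16 in R 4.3.3, with TMM scaling and a model of group means, and were tested by quasi-likelihood with Benjamini-Hochberg adjustment. The thresholds were an absolute log2 fold change over 1 and an adjusted p under 0.05. The SE is the log2 fold change over the square root of F. The steps were tested on simulated data. Motifs and sequences were read from hg38, and transcripts from GENCODE release 44.

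Libraries of 8910652 to 12778567 counts in tested windows gave a common biological coefficient of variation of 0.0747. Intervals cover only the spread between libraries of a group, as estimated over all 8 libraries together. The members and gene lists were chosen with earlier results of these data known. Named were the windows nearest each TSS, every member called, the largest rise and fall per gene and comparison without overlap, and the 3 most and least changed genes of a list. The values of 1 gene so chosen and 1 sequence are not reported here. Libraries of the same group differed by more than sampling noise, at 1.40 to 2.21 times the counting variance. Value columns not mapped to a sample numbered 0. Alternatives covered scaling, tool (DESeq2 1.42.0), filter, region class, samples in the fit, replicate block, rounding, thresholds, distance, overlapping windows and leaving out each library.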

Additional observations from a re-analysis of the deposited data

Results flagged for a closer look

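Results were listed for a closer look where the IFN effect differed between genotypes by the test of the difference itself, in edgeR's quasi-likelihood fit. The effect was larger in USP18-/- than in WT cells at the MX2 promoter by 1.66 on the log2 scale, at the adjoining MX2 intron 1 window by 1.65 and at the upstream MX1 promoter by 2.08. It was smaller at the downstream MX1 promoter, with a difference of -2.26, a call that was lost in DESeq2 and without any 1 of 3 libraries. Groups of 2 libraries are too small for a test of single outlying libraries.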

How the results depend on the processing

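For 6 windows and 5 comparisons, 30 values were recomputed under 534 alternatives, of which 516 kept their direction and their side of the thresholds. The number of members called kept within 1.5 times its value under all alternatives for IFN in WT cells (3 to 4), IFN in USP18-/- cells (2 to 4), USP18-/- against WT cells with IFN (4 to 7) and the difference of effects (3 to 5). For untreated USP18-/- against WT cells it was 1, but 2 with the adjusted p alone and 0 within 10000 bp of the TSS, which leaves out the intron 7 window. Changes of sign concerned values that did not pass the test. For untreated cells, the log2 fold change at the downstream MX1 promoter was -0.0727 with its region class fitted alone, -0.0052 without untreated USP18-/- replicate 1 and -0.18 without untreated WT replicate 2, in place of 0.24, and -0.18 to 0.74 over all libraries left out. The MX2 promoter gave -0.0955 with its class alone in place of 0.22. The MX2 window at 4838 bp gave 0.0042 and 0.31 without the same libraries in place of -0.17 (-0.50 to 0.31 over all libraries left out), and its IFN effect in WT cells was 0.34 without untreated WT replicate 2 in place of -0.14 (-0.47 to 0.34). The cause was not tested. Scaling by the sum of counts moved the median of all windows to -0.14 for IFN in USP18-/- cells, -0.16 and -0.27 for USP18-/- against WT cells untreated and with IFN, and -0.13 for the difference. The windows higher and lower over all then numbered 7472 and 7934 in place of 8781 and 5434, 4990 and 16943 in place of 7020 and 13321, 8825 and 24119 in place of 13971 and 16595, and 4686 and 4829 in place of 5682 and 3140.

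Whether same-numbered libraries were paired is not given by the labels. Their deviations had an r of 0.0041 to 0.14, the highest between untreated and IFN treated USP18-/- cells. A low r cannot decide this, since noise of single libraries also lowers it. With the replicate block, the numbers of members called were 4, 3, 1, 5 and 4 for IFN in WT cells, IFN in USP18-/- cells, untreated genotypes, IFN treated genotypes and the difference of effects, as without it. Leaving out a library leaves a group with 1, which is assumed to vary like the others. The 75.5 tags or fewer per library at the downstream MX1 promoter limit its precision.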
